A study of Oryctolagus cuniculus with 6 samples.

Results

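The plasminogen activators, the inhibitor SERPINE2 and the ADAMTS proteases were compared between smooth muscle cell RNA of ligated and of sham rabbits. A probe was taken as a member when its gene name in the array files was PLAU, PLAUR, PLAT, SERPINE2, ADAMTS1, ADAMTS4, ADAMTS5 or ADAMTS9, or when its description gave the full name of a plasminogen activator, the urokinase receptor, serpin E2, or an ADAM metallopeptidase with thrombospondin type 1 motif. The probes analysed here were 24 of 43603, for 13 genes on an array that carried 10576 gene symbols in all: 6 of the 8 genes named above, with ADAMTS6, ADAMTS12, ADAMTS13, ADAMTS15, ADAMTS16, ADAMTS17 and ADAMTS18 found through their descriptions. PLAUR and ADAMTS1 had no probe under this rule and were not analysed here.

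The study asked how smooth muscle cells of the basilar artery answer to raised blood flow. In 3 female New Zealand White rabbits both common carotid arteries were tied off, which sends more blood through the basilar artery (the ligated group, called hemodynamic insult in the labels), and in 3 others the carotids were exposed but not tied (the sham group). All animals were taken on day 5, the artery was digested with elastase and collagenase, and RNA of the released cells was hybridised to 1 one-colour Agilent array per sample. The labels give no age or genotype, and no step that would separate smooth muscle cells from other cells of the wall.

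Plasminogen activators are serine proteases that cut plasminogen into plasmin, which dissolves fibrin and activates other proteases. PLAU (urokinase) acts mainly around cells, and PLAT (tissue-type activator) mainly on fibrin. SERPINE2 (protease nexin 1) is a serpin that blocks such enzymes by trapping them in covalent complexes. The ADAMTS enzymes are secreted metalloproteases of the extracellular matrix. ADAMTS4, ADAMTS5, ADAMTS9 and ADAMTS15 can cleave the large proteoglycans versican and aggrecan, and versican is a component of the artery wall.

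Values are normalised log2 signals: the log2 of the scanner software's processed signal minus the 75th percentile of the same array, so that 0 is as bright as that percentile. Between 61.6% and 63.7% of probes were well above background on the ligated arrays, against 58.7% to 63.4% on the sham arrays, and no spot was saturated. All ligated arrays shared 1 slide and all sham arrays another, so the effect of the slide and that of ligation cannot be told apart. Sham arrays 2 and 3 stood closer to each other (SD of their probe differences 0.30) than any other pair (0.55 to 1.07), and sham array 3 was scanned on another day than the other 5. Under normexp, another way of correcting the background, no probe of the array passed the test used below; with 43 spots of high background left out of the same correction 2352 probes passed, against 2290 as reported. The 7 tested smooth muscle markers were all well above background on every array, and their summed linear signal ran from 283 to 663 on the ligated arrays, against 737 to 1321 on the sham arrays.

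The probes that the results below turn on are shown here 5′ to 3′ as the files give them, each with 60 bases. Positions are given on oryCun2, as the files list them. The files list all but the ADAMTS4 position from the higher to the lower coordinate, and they give no position for PLAT. The first set holds the activators and SERPINE2, with 3 probes of PLAU that did not all give the same answer.
PLAU probe 1, chr18:13595277-13595336: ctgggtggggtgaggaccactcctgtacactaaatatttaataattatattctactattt
PLAU probe 2, chr18:13595343-13595402: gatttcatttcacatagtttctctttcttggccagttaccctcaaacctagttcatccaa
PLAU probe 3, chr18:13597857-13597916: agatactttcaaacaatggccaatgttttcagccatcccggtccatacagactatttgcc
PLAT probe: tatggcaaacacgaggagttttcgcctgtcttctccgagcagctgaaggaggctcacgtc
SERPINE2 probe, chr7:165494551-165494610: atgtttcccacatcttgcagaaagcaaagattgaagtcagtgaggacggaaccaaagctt

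The second set holds the ADAMTS genes described in full. ADAMTS5 had 6 probes, of which 5 are tiled over 1 stretch in steps of 1 base. Capitals mark the 56 bases that these 5 probes share, so they read almost the same piece of transcript and are not separate looks at the gene. The start of the first of them lies 8454 bases past the end of the sixth, called ADAMTS5 probe 1 here.
ADAMTS9 probe, chr9:31633301-31633360: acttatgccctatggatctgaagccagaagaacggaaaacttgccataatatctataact
ADAMTS5 probe 1, chr14:156132197-156132253: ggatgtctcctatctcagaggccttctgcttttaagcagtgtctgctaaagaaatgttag
ADAMTS5 probe 2, chr14:156140707-156140766: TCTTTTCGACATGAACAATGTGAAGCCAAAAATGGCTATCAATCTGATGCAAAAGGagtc
ADAMTS5 probe 3, chr14:156140708-156140767: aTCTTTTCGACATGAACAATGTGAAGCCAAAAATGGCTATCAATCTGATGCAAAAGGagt
ADAMTS5 probe 4, chr14:156140709-156140768: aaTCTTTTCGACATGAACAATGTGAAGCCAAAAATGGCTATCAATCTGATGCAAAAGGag
ADAMTS5 probe 5, chr14:156140710-156140769: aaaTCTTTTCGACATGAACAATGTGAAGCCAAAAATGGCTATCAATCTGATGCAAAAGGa
ADAMTS5 probe 6, chr14:156140711-156140770: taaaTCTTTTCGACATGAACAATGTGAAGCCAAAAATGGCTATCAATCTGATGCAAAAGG
ADAMTS4 probe, chr13:31789498-31790046: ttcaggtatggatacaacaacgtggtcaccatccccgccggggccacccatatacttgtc
The listed position of the ADAMTS4 probe spans 549 bases, and that of ADAMTS5 probe 1 spans 57.

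Of the 13 genes, 10 had a probe that stood well above background on 3 or more of the 6 arrays, and these were tested. With several tested probes, the brightest stood for the gene. ADAMTS9 passed the threshold (limma, adjusted p under 0.05 over all 27410 tested probes) and was higher in the ligated arrays, no gene passed it downward, and 9 did not pass. Across the array 8.35% of tested probes passed, 5.71% upward and 2.65% downward. With 1 probe per named gene the shares were 8.81% of 7835 genes, and 6.14% upward, so that 1 of 10 (10%) is near the background. The median change of the 10 genes was 0.79 on the log2 scale, against 0.0094 over the 7835 named genes. All 10 changes were positive, as reported and under every other setting that tested them. The filter on all 6 arrays left out ADAMTS9, ADAMTS12 and ADAMTS15, which cleared the background on more ligated than sham arrays. Under that filter the median of the 7 tested genes was 0.61, against -0.015 over all tested probes. In 3 of the 10 genes (30.0%) every ligated array lay above every sham array, where 35.3% of named genes did not overlap in either direction, and 17.7% upward. At the level of probes, 2 of 17 tested probes passed (11.8%) and 6 of 17 did not overlap (35.3%), against 34.7% of all tested probes in either direction and 17.6% upward.

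**Figure D1:**
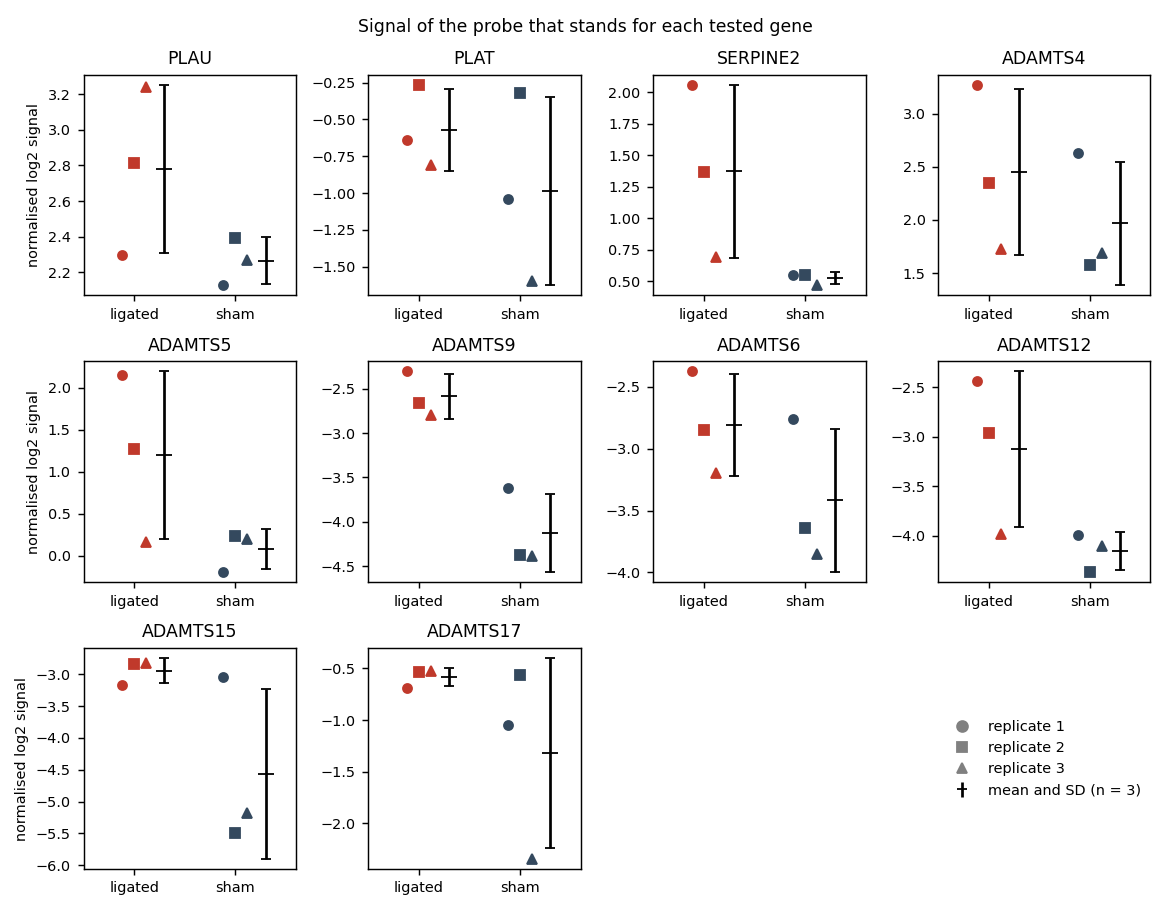
Normalised log2 signal (vertical axis, scale differs by panel) of the probe that stands for each of the 10 tested genes, with 3 ligated arrays left and 3 sham arrays right; marker shapes give the replicate number, and black bars the mean and SD (n = 3). The ligated points lie above all sham points for SERPINE2, ADAMTS9 and ADAMTS12, and in the other 7 panels the groups overlap.

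Neither plasminogen activator passed the test. PLAU had 2.30, 2.81 and 3.24 on ligated arrays 1, 2 and 3, against 2.13, 2.40 and 2.27 on sham arrays 1, 2 and 3 (probe 1). Ligated arrays 2 and 3 lay above all sham arrays, while ligated array 1 lay among them. The means were 2.78 ± 0.47 in ligated and 2.27 ± 0.13 in sham arrays (SD, n = 3 each), a log2 difference of 0.52 ± 0.27 (SE; limma, adjusted p = 0.273). Probe 2, which starts 66 bases further along, gave 0.43 (adjusted p = 0.355). Probe 3 starts 2580 bases from probe 1 and was much dimmer, with means of -1.88 in ligated and -1.87 in sham arrays. It gave a difference of -0.01 (adjusted p = 0.983), so the small excess seen with the first pair of probes was not seen there. Without ligated array 1 the probe 1 difference was 0.76, and without ligated array 3 it was 0.29; neither passed.

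PLAT had -0.64, -0.26 and -0.81 on the ligated arrays, against -1.04, -0.32 and -1.59 on the sham arrays. The groups overlapped, since sham array 2 lay above ligated arrays 1 and 3. The log2 difference was 0.41 ± 0.35 (SE; limma, adjusted p = 0.477), and leaving out 1 array at a time moved it between 0.11 and 0.75 without a call. In whole-artery digests of this kind, fewer cells of a type and less RNA per cell cannot be told apart, for this gene and for all that follow.

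SERPINE2, which inhibits thrombin and PLAU and is bound to the cell surface, had 2.06, 1.37 and 0.69 on ligated arrays 1, 2 and 3, against 0.55, 0.55 and 0.47 on the sham arrays. The groups did not overlap: the sham arrays lay within a narrow band and the ligated arrays were spread out above it. The means were 1.37 ± 0.68 in ligated and 0.53 ± 0.05 in sham arrays (SD, n = 3 each), a log2 difference of 0.85 ± 0.35 (SE; limma, adjusted p = 0.177). It did not pass under any of 17 other settings, with the lowest adjusted p of 0.0534 without ligated array 3 (difference 1.19). Without ligated array 1 the difference was 0.50.

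ADAMTS9, a secreted protease that cleaves versican and aggrecan and is expressed at low levels in many adult tissues, was the 1 gene that rose. It had -2.30, -2.66 and -2.79 on ligated arrays 1, 2 and 3, against -3.62, -4.38 and -4.38 on sham arrays 1, 2 and 3. All ligated arrays lay above all sham arrays, and sham array 1 was the highest of its group. The means were -2.58 ± 0.25 in ligated and -4.13 ± 0.44 in sham arrays (SD, n = 3 each), a log2 difference of 1.54 ± 0.28 or 2.91-fold (SE; limma, adjusted p = 0.0244). The signal was dim: it was well above background on 3 ligated and 2 sham arrays, and the lowest normalised log2 signals of any probe well above background on the sham arrays were -4.04, -4.11 and -4.58. The call was lost under 10 of 16 other settings, with the direction kept in all 16. Of these settings, the scan day block gave the same fit as leaving out sham array 3, the only array of its scan day. Without ligated array 1 the difference was 1.40 (adjusted p = 0.0748), without ligated array 2 it was 1.58 (0.0802), without sham array 2 it was 1.42 (0.104) and without sham array 3 it was 1.41 (0.105). Under quantile normalisation it was 1.28 (0.0537), under normexp background correction it was 0.68 (0.789), and under normexp without the spots of high background it was 0.43 (0.0914). Both normexp settings added an offset of 50 to each signal before the log2, which narrows log2 differences of dim probes. Their sizes are therefore not on the same footing as the 1.54.

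ADAMTS5, the main aggrecanase of mouse cartilage, was higher in ligated arrays on average with all 6 probes, and 1 of the 6 passed. ADAMTS5 probe 1, which stood for the gene, had 2.16, 1.27 and 0.17 on ligated arrays 1, 2 and 3, against -0.19, 0.24 and 0.20 on sham arrays 1, 2 and 3. Ligated arrays 1 and 2 lay well above the sham arrays and ligated array 3 among them. The log2 difference was 1.12 ± 0.49 (SE; limma, adjusted p = 0.199). Without ligated array 3 it was 1.63 and passed (adjusted p = 0.0436), and without ligated array 1 it was 0.64 (adjusted p = 0.393).

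In the tiled stretch, ADAMTS5 probe 2 had -1.05, -0.81 and -1.34 on the ligated arrays, against -2.43, -2.85 and -3.72 on the sham arrays. All ligated arrays lay above all sham arrays, and sham array 3 was the lowest. The log2 difference was 1.94 ± 0.36 or 3.83-fold (SE; limma, adjusted p = 0.0262). Probe 3 of ADAMTS5, shifted by 1 base, had -1.92, -1.75 and -2.91 on the ligated arrays, against -2.99, -3.50 and -3.60 on the sham arrays. Its groups also did not overlap, but ligated array 3 came close to sham array 1, and the difference of 1.17 did not pass (adjusted p = 0.0950). Probe 5 of ADAMTS5 had -1.75, -1.70 and -2.33 on the ligated arrays, against -2.59, -2.93 and -3.32 on the sham arrays, with no overlap and a difference of 1.02 (adjusted p = 0.0744). Probes 4 and 6 of ADAMTS5 overlapped between the groups, with differences of 0.97 (adjusted p = 0.168) and 0.84 (adjusted p = 0.172). Probes that share 56 of their 60 bases thus ran from 0.84 to 1.94 on the log2 scale, and 1 of the 5 passed.

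The call of ADAMTS5 probe 2 was lost without ligated array 1 (difference 1.93, limma, adjusted p = 0.0827), without ligated array 2 (1.81, 0.0921), without sham array 2 (2.01, 0.0871) and without sham array 3 (1.58, 0.0633). It was also lost under normexp background correction (0.70, 0.789), the scan day block (1.58, 0.0633) and the averaging of sham arrays 2 and 3 (1.79, 0.0694). Probe 3 of ADAMTS5 passed under 1 of 17 other settings (lowest adjusted p = 0.0312). The mean over all 6 ADAMTS5 probes differed by 1.17 and did not pass (adjusted p = 0.0760).

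**Figure D2:**
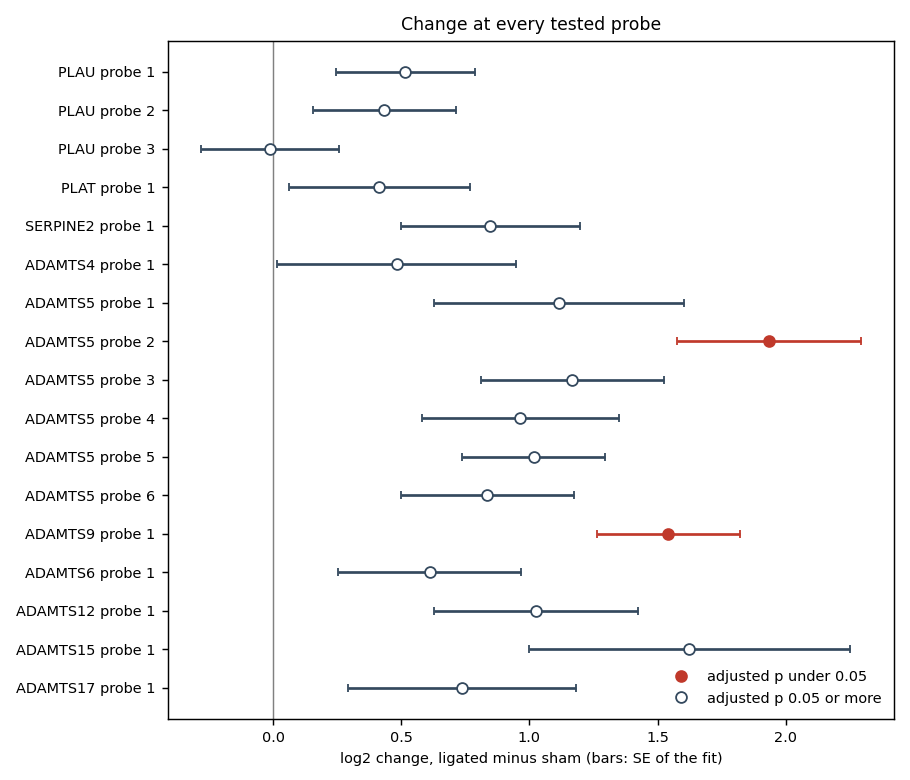
Change of each of the 17 tested probes (log2, ligated minus sham, points with the SE of the fit), with filled red points for an adjusted p under 0.05 and open points otherwise; probe 1 of a gene stands for it. ADAMTS5 probe 2 (1.94) and ADAMTS9 (1.54) are filled, and 16 of the 17 changes are positive, with PLAU probe 3 at -0.01.

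ADAMTS4, an aggrecanase also known to cleave versican, had 3.28, 2.35 and 1.72 on ligated arrays 1, 2 and 3, against 2.64, 1.58 and 1.69 on sham arrays 1, 2 and 3. The groups overlapped, and replicate 1 was the highest array in both. The log2 difference was 0.48 ± 0.47 (SE; limma, adjusted p = 0.532), and leaving out 1 array at a time moved it between 0.07 and 0.85 without a call.

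**Figure D3:**
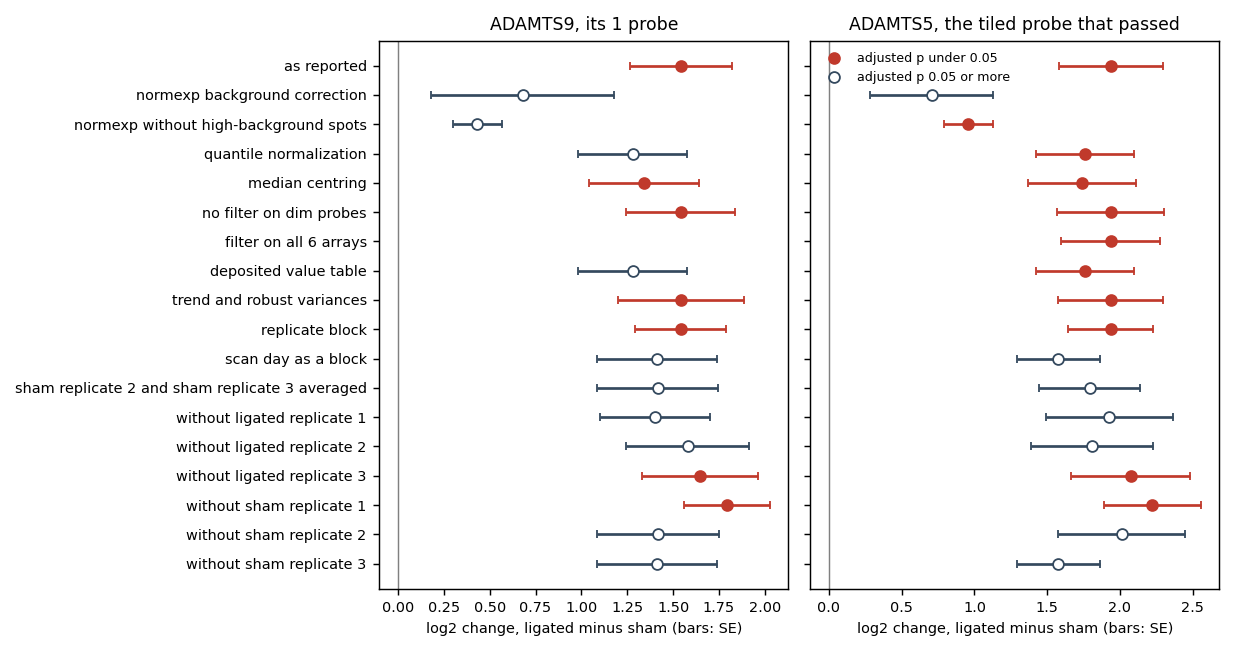
Log2 change (ligated minus sham, points with the SE of the fit) of ADAMTS9 on the left and of ADAMTS5 probe 2 on the right, as reported (top row) and under each other setting; filled red points have an adjusted p under 0.05. Every point is above 0, and both calls are lost when ligated replicate 1 or 2 or sham replicate 2 or 3 is left out. ADAMTS9 has no point under the filter on all 6 arrays, its signal having cleared the background on 5.

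Of the other ADAMTS genes, ADAMTS15, ADAMTS12, ADAMTS17 and ADAMTS6 were tested and none passed. ADAMTS15, a versican-cleaving enzyme, had -3.16, -2.84 and -2.82 on ligated arrays 1, 2 and 3, against -3.04, -5.49 and -5.17 on sham arrays 1, 2 and 3. Sham array 1 lay at the level of the ligated arrays and the other two far below, where the probe was not well above background. The log2 difference was 1.62 ± 0.63 (SE; limma, adjusted p = 0.156), and it passed without sham array 1 (adjusted p = 0.00855), where the ligated arrays were at least 2.65-fold higher.

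ADAMTS12, which cleaves cartilage oligomeric matrix protein in human, had -2.44, -2.96 and -3.99 on ligated arrays 1, 2 and 3, against -3.99, -4.37 and -4.10 on sham arrays 1, 2 and 3. Ligated array 3 and sham array 1 were level to 2 decimals, so the groups only just did not overlap. The probe was well above background on 2 ligated arrays and 1 sham array. The log2 difference was 1.02 ± 0.40 (SE; limma, adjusted p = 0.160); without ligated array 3 it was 1.45 and passed (adjusted p = 0.0329), and without ligated array 1 it was 0.68 (0.332).

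ADAMTS17, which in human is tied to fibrillin microfibrils through a Weill-Marchesani-like syndrome, had -0.69, -0.54 and -0.52 on the ligated arrays, against -1.05, -0.57 and -2.34 on the sham arrays. Sham array 3 was the lowest by a wide margin, sham array 2 lay within the ligated range, and the difference of 0.74 ± 0.44 (SE; limma) had an adjusted p of 0.329; without sham array 3 it was 0.23. ADAMTS6 had -2.37, -2.85 and -3.20 on the ligated arrays, against -2.76, -3.64 and -3.85 on the sham arrays. Its groups overlapped through sham array 1, and the difference of 0.61 ± 0.36 (SE; limma) had an adjusted p of 0.316.

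ADAMTS13, the protease that cuts von Willebrand factor, was well above background on 1 of 6 arrays, ligated array 3. The 5 tiled probes of ADAMTS18 were so on at most 1 array each, and the ADAMTS16 probe on none. These 3 genes were not tested, and the arrays allow no statement on their levels beyond that.

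SERPINE2, ADAMTS4, ADAMTS5 (probe 1), ADAMTS6, ADAMTS9 and ADAMTS12 all had ligated array 1 highest and ligated array 3 lowest of their group. PLAU (probe 1), ADAMTS15 and ADAMTS17 had ligated array 3 highest and ligated array 1 lowest. PLAT had ligated array 2 highest and ligated array 3 lowest. Ligated array 3 also held the highest summed linear signal of erythroid markers (668, against 28.5 and 31.4 on ligated arrays 1 and 2, and 189 to 389 on the sham arrays). Its sum of 5 endothelial markers was 141, with 105 on the nearest other array. Of these markers VWF (6.98, log2) and PECAM1 (2.01) were highest on ligated array 3. CLDN5 (2.95) and TEK (0.68) lay below sham array 1 (3.64 and 1.01), and ESAM (-0.19) was the lowest of the 6 arrays. For ligated array 3 the sum of 5 macrophage markers was 21.3, the highest of the 6 arrays. Its sums of 4 neutrophil markers (6.26) and 4 lymphocyte markers (2.26) were the highest as well, with 3.84 and 1.98 on the nearest other array. Within those lists only S100A9 (2.10, log2) and CD3D (0.76) were highest on ligated array 3. Every other marker of both lists was higher on some other array. The part of these cells in the order of the ligated arrays was not tested.

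The list of plasminogen binders, receptors and other inhibitors had 19 genes, of which 10 were tested. Of these 3 rose, none fell and 7 did not pass, with a median of 0.50. Beside the counts of this list and those that follow, 8.81% of 7835 named genes passed, 6.14% upward. The lists were chosen with earlier results of these data known. PLG itself, the substrate of both activators, was not well above background on any array, nor were SERPINB2, SERPINB8, CPB2, F12 and HPN. VTN, vitronectin, an adhesive glycoprotein of plasma and matrix that binds the urokinase receptor, did not clear the background on a sham array and was at least 25.2-fold higher in the ligated arrays (limma, adjusted p = 0.00921). The bound was at least 45.0-fold without ligated array 1 and at least 14.9-fold without ligated array 3. ANXA2 and S100A10 form a complex that holds plasminogen and PLAT at the cell surface.

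S100A10 had 3.31, 3.80 and 4.28 on the ligated arrays, against 1.89, 1.58 and 1.47 on the sham arrays, with no overlap (2.15 ± 0.29, SE; limma, adjusted p = 0.0104). The call was lost without sham array 2 (2.12, adjusted p = 0.0513) and without sham array 3 (2.06, 0.0545). ANXA2 had 3.95, 4.70 and 4.16 on the ligated arrays, against 2.97, 1.96 and 2.06 on the sham arrays, again with no overlap (1.94 ± 0.34, SE; limma, adjusted p = 0.0235). Its call was lost without ligated array 1 (2.10, adjusted p = 0.0539), ligated array 2 (1.72, 0.0803), sham array 2 (1.75, 0.0914) or sham array 3 (1.80, 0.1000). SERPINI1, neuroserpin, an inhibitor of PLAT, averaged -0.02 ± 0.13 in ligated and 0.90 ± 0.39 in sham arrays (SD, n = 3 each); the difference of -0.92 ± 0.25 (SE; limma) had an adjusted p of 0.0694 and passed without sham array 1 (-1.15, adjusted p = 0.0312).

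The coagulation list had 8 tested genes of 14, of which 2 rose, none fell and 6 did not pass, with a median of 0.86. F3, tissue factor, which starts coagulation, averaged 4.30 ± 0.42 in ligated and 2.11 ± 0.26 in sham arrays (SD, n = 3 each; 2.19 ± 0.27, SE; limma, adjusted p = 0.00857). PROS1, protein S, a cofactor of activated protein C, had 2.61, 2.97 and 2.98 on the ligated arrays, against 1.06, 1.00 and 1.05 on the sham arrays (1.82 ± 0.19, SE; limma, adjusted p = 0.00498). In both genes the groups stood well apart, and neither call was lost when any 1 array was left out. SERPIND1, heparin cofactor II, did not clear the background on a sham array and did not pass (adjusted p = 0.0691; without sham array 1, 0.0125), nor did F2, prothrombin (0.97, adjusted p = 0.137).

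Of the proteases and growth factors that plasmin is known to activate or release, 10 of 15 were tested; 3 rose, none fell and 7 did not pass, with a median of 0.60. HGF, whose inactive precursor is cut by serine proteases including PLAU, had -0.11, -0.24 and -0.44 on the ligated arrays, against -2.33, -2.03 and -1.81 on the sham arrays. The groups did not overlap (1.79 ± 0.21, SE; limma, adjusted p = 0.00721), and leaving out any 1 array kept the call. MMP9, a gelatinase, averaged -0.53 ± 0.81 in ligated and -3.75 ± 0.74 in sham arrays (SD, n = 3 each). The difference was 3.22 ± 0.52 (SE, limma, adjusted p = 0.0174). The MMP9 probe was well above background on only 2 sham arrays, so the size of the difference depends on dim signals. MMP2, the other gelatinase, averaged 3.61 ± 0.27 in ligated and 2.32 ± 0.11 in sham arrays (SD, n = 3 each; 1.29 ± 0.21, SE; limma, adjusted p = 0.0177). Without ligated array 2, sham array 2 or sham array 3, both calls were lost (MMP9 adjusted p = 0.0731, 0.0598 and 0.0729; MMP2 0.0568, 0.0892 and 0.0832), and that of MMP2 also under median centring (0.0511). MMP14, which activates MMP2 at the membrane, overlapped between groups (1.30, adjusted p = 0.133), and passed without ligated array 3 (1.77, adjusted p = 0.0376).

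The list of ADAMTS substrates, inhibitors and relatives had 13 tested genes of 24, of which 11 rose, none fell and 2 did not pass, with a median of 2.09, against 0.0094 for all named genes. Of these, COL1A1, COL1A2 and COL3A1 are shared with the fibroblast and meninges markers. The 4 genes with the smallest p were COL1A1, a fibrillar collagen chain (3.02 ± 0.28, adjusted p = 0.00374), FN1, fibronectin (2.41 ± 0.24, adjusted p = 0.00441), FBN1, fibrillin 1 (2.18 ± 0.23, adjusted p = 0.00509), and THBS2, a matricellular protein (2.12 ± 0.27, adjusted p = 0.00915; all SE; limma). Leaving out any 1 array kept these 4 calls. In the whole list 5 genes passed without sham array 3, 7 without sham array 2, and 7 with both averaged into 1 array.

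A further pair of that list was singled out after their values were seen, as a well-known substrate and inhibitor of ADAMTS4 and ADAMTS5. VCAN, versican, had 3.42, 2.32 and 1.76 on the ligated arrays, against -1.27, -0.33 and -0.35 on the sham arrays. Every ligated array lay far above every sham array (3.15 ± 0.48, SE; limma, adjusted p = 0.0148). TIMP3, the tissue inhibitor that blocks ADAMTS4 and ADAMTS5, averaged 7.12 ± 0.18 in ligated and 6.06 ± 0.09 in sham arrays (SD, n = 3 each; 1.06 ± 0.19, SE; limma, adjusted p = 0.0221). Without ligated array 2, sham array 2 or sham array 3 both calls were lost (VCAN adjusted p = 0.0597, 0.0509 and 0.0552; TIMP3 0.0770, 0.108 and 0.108), and that of TIMP3 also under median centring (0.0659). ACAN, aggrecan, was well above background on 1 ligated array and was not tested.

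The 9 fibroblast and meninges markers were in part higher as well: 5 of 9 tested rose (LUM, FAP, COL1A1, COL1A2 and COL3A1) and none passed downward. GJB2 (1.76) and DPT (1.97) did not pass, nor did DCN (0.36) and PTGDS (-0.85), whose groups overlapped. The summed linear signal of the list ran from 1838 to 2035 on the ligated arrays, against 799 to 895 on the sham arrays. The brightest markers, COL1A2 and COL3A1 (ligated means 9.69 and 9.48, log2), weigh most in that sum. Among the 7 tested smooth muscle markers none rose and 2 fell, SMTN (-1.77) and DES (-1.11). No tested marker of endothelium (5), macrophages (5), neutrophils (4), lymphocytes (4), erythroid cells (3) or neurons and glia (1) passed. The part of these markers in the changes of ADAMTS9, ADAMTS5 and the matrix and plasminogen-binding genes was not tested.

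**Figure D4:**
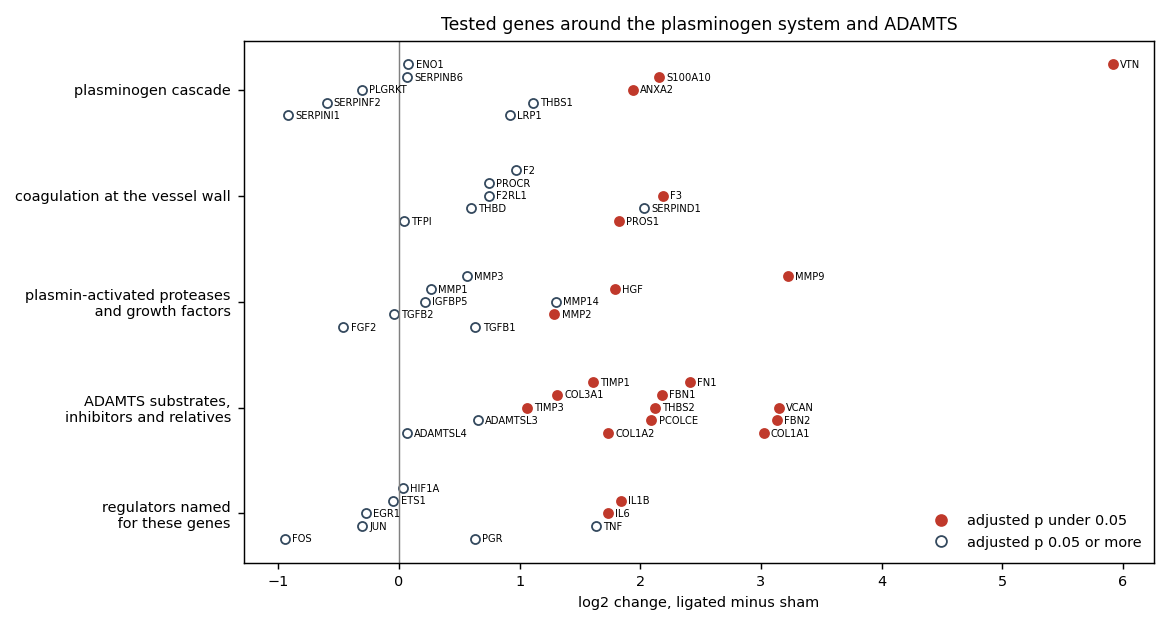
Log2 change (ligated minus sham, horizontal axis) of every tested gene of the 5 lists around the plasminogen system and ADAMTS, 1 row per list and 1 point per gene, filled red for an adjusted p under 0.05; the vertical shift within a row only keeps names apart. The row of ADAMTS substrates, inhibitors and relatives holds 11 filled points of 13, among them the inhibitors TIMP1 and TIMP3. The other rows hold 3 of 10, 2 of 8, 3 of 10 and 2 of 9. VTN, SERPIND1 and FBN2 did not clear the background on the sham arrays, so their fitted positions depend on dim signals.

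Among cytokines and transcription factors known to regulate these proteases, 9 of 16 were tested; 2 rose, none fell and 7 did not pass, with a median of 0.03. IL1B, a cytokine that induces ADAMTS4 in human and bovine cartilage cells, had 7.64, 8.25 and 8.02 on the ligated arrays, against 5.61, 6.43 and 6.35 on the sham arrays (1.84 ± 0.29, SE; limma, adjusted p = 0.0168). IL6 had 4.94, 5.10 and 5.98 on the ligated arrays, against 3.99, 3.34 and 3.50 on the sham arrays (1.73 ± 0.34, SE; limma, adjusted p = 0.0298). In both genes all ligated arrays lay above all sham arrays. Without ligated array 2, sham array 2 or sham array 3 both calls were lost (IL1B adjusted p = 0.0667, 0.0516 and 0.0619; IL6 0.0802, 0.116 and 0.118), and that of IL6 also without ligated array 1 (0.0536). TNF (1.63, adjusted p = 0.0685) and FOS, a subunit of AP-1 (-0.95, adjusted p = 0.0841), did not overlap between groups and did not pass. With sham arrays 2 and 3 averaged into 1, the plasminogen, coagulation and plasmin-activated lists had 1, 2 and 1 genes past the threshold, and the list of regulators had 0.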

How the data were processed

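RNA of 3 ligated and 3 sham samples was read on 6 one-colour arrays. The submitters' processing notes name Agilent Feature Extraction 10.7. The processed signal of a spot is an intensity, background-subtracted and detrended per the file headers, and the deposited raw signal and local background are unprocessed intensity values. Spot marks of the unit "other" hold 0 or 1, per the file headers. The deposited table holds log2 values with equal quantiles, made by a step not given in the sources used here.

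Outlier-marked spots were dropped, repeat spots averaged on the log2 scale, and each array's 75th percentile subtracted. Probes well above background on 3 or more arrays (27410 of 43603) were fitted with limma 3.58.1 in R 4.3.3, which left 4 residual degrees of freedom before moderation. Tests were two-sided, Benjamini-Hochberg adjusted over all fitted probes, with a threshold of 0.05; the fit was tested on simulated data. An exact permutation test of 3 against 3 cannot go below p = 0.1, so none is given. The labels give 3 rabbits a group and do not tie an array to a rabbit, so p-values measure the spread between these samples, and their number limits the precision.

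Genes were named from the files; 23 of 24 member probes had the same symbol in a table of rabbit genes (assembly mOryCun1.1, for names alone). All members analysed were named (1 further gene is not reported here), and of each of 5 surrounding lists the 4 genes with the smallest p. The members and all lists were chosen with earlier results of these data known. Marker sums add the linear normalised signals of a list's tested markers. For a probe not above background on any array of a group, the fold is a lower bound, set per array by the higher of its own signal and the lowest signal well above background. The alternatives were normexp background correction, with and without 43 spots of high background, quantile normalisation, median centring, no filter or a filter on all 6 arrays, the deposited table, trend and robust variances, the replicate number or the scan day as a block, sham arrays 2 and 3 averaged, and each array left out. Those for the surrounding lists were chosen after seeing the data.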

Additional observations from a re-analysis of the deposited data

How the results depend on the processing

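The count of member genes past the threshold, 1 as reported, ran from 0 to 3 when 1 array was left out. It was 0 under normexp with and without the spots of high background, quantile normalisation, the filter on all 6 arrays, the deposited value table, the scan day block and the averaging of sham arrays 2 and 3. Over all probes, 2290 passed as reported. The number was 0 under normexp (615 at an unadjusted p under 0.05, against 7498 as reported) and 2352 under normexp once the 43 spots of high background were left out (1322 higher and 1030 lower), so the loss under normexp went with those spots. The plasminogen, coagulation, plasmin-activated, substrate and regulator lists then had 3, 2, 3, 11 and 2 genes past the threshold, as reported. The number of probes was 1524 with no filter on dim probes, 552 with the scan day as a block, 595 with sham arrays 2 and 3 averaged, and from 552 to 2269 with 1 array left out. As sham array 3 was alone on its scan day, the scan day block gave the same fit as leaving that array out. The causes of the other changes were not tested. Median centring moved the median of all probes to -0.19, against 0.0076 as reported, and split the calls into 1149 higher and 1052 lower, against 1564 higher and 726 lower.

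ADAMTS9 lost its call under normexp (0.68), normexp without the spots of high background (0.43), quantile normalisation (1.28), the deposited table (1.28), the scan day block (1.41) and sham averaging (1.42).

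Whether the replicate numbers pair the samples could not be decided with 3 arrays a group. The deviations of same-numbered arrays correlated at 0.24, -0.47 and 0.37, and 1 of 3 ligated arrays correlated best with its own number. With the replicate block 1295 probes passed and the count of member genes stayed at 1. The calls of ANXA2, MMP2, IL6 and TIMP3 were lost under it. The plasminogen, plasmin-activated and substrate lists then had 2, 2 and 9 genes past the threshold, against 3, 3 and 11 as reported.

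The signal of the ADAMTS9, ADAMTS12 and ADAMTS15 probes, which were not above background on every sham array, limits what the arrays show for them. Of 10 spike-in controls, 3 were lower on every ligated array (median -0.81 over the 10), beside the separate slides of the groups. Most controls rose steadily from ligated array 1 to 3, such as a97 (4.81, 5.56 and 6.16) and n11 (6.76, 7.43 and 8.18). The dimmest, r60_3 and a104, did not. The part of this rise in the order of the ligated arrays was not tested.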
